A study of Mus musculus with 4 samples.

Results

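Cells make cholesterol from acetyl-CoA through mevalonate, farnesyl diphosphate, squalene and lanosterol, and the enzymes of this route are controlled together by the SREBP transcription factors, which are held in the endoplasmic reticulum by Scap and the Insig proteins when sterol is plentiful. When sterol accumulates, the oxysterol-sensing LXR receptors raise the genes that move cholesterol out of the cell, among them the transporters Abca1 and Abcg1 and the lipoprotein component Apoe. Chondrocytes both make and export cholesterol, and macrophages express the export genes strongly. The expression of 30 genes of this system was examined in mouse articular cartilage, chosen by name from the 24532 genes of the expression table: 18 enzymes of synthesis, 5 genes of the SREBP system, the sterol carrier Stard4, the efflux and lipoprotein genes Abca1, Abcg1 and Apoe, the LXR receptors Nr1h2 and Nr1h3, and Mylip, a ubiquitin ligase that removes lipoprotein receptors. All 30 were found in the table, and each was above 0 in all 4 libraries.

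RNA-seq was performed on cartilage of wild type (C57BL/6) male mice, young or adult and with sham treatment or injury, and each of the 4 groups was 1 library made from pooled animals (5 sham or 10 injured mice), so that no difference below has a replicate check, a standard deviation or a p-value. Young animals were aged 3 weeks. For adult animals the study's methods give an age of 10 weeks and the sample labels give 12 or 14 weeks. Injury was a full-thickness needle defect of the patellar groove with harvest at day 3, whereas the labels name DMM surgery for the injured samples and days 3 to 14 for the adult sham, so age, time and treatment of the adult sham cannot be told apart. The labels give chondrocyte as the cell type. All 12 chondrocyte markers examined were at 1 FPKM or more in all 4 libraries, with Col2a1 between 3173 and 9349 FPKM, but so were all 8 skeletal muscle, all 8 neutrophil and all 7 osteoblast markers, so the libraries held RNA of other tissues as well. In such bulk samples, fewer cells of a type and less RNA per cell cannot be told apart.

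Levels are FPKM, fragments mapped to a gene relative to the length of its transcript and to the depth of the library, and differences are log2 ratios of FPKM + 1, so that a value of 1 is 2-fold. Where 4 FPKM values follow a gene, they stand in the order young sham, young injured, adult sham, adult injured, each from 1 library. The libraries also differed in their general level: across the 10891 genes that reached 1 FPKM in every library, the log2 ratio had a median of -0.04 in young mice after injury, 0.23 in adult mice after injury and -0.30 between the shams (adult over young). Directions were therefore also examined after 3 ways of rescaling the libraries (to the same sum, by median of ratios and by quantiles), and a flip is given beside a direction the text states. If the smallest regular step of FPKM times transcript length is taken as 1 fragment, the libraries held about 25600000 to 30800000 fragments and the least covered value, that of Abcg1 in young sham cartilage, rested on about 81.9 fragments. The standard error from counting alone was then at most 0.20 on the log2 scale for any of the 30 genes in any comparison, and below 0.1 for 26 of them in all comparisons. It covers counting only, not the spread between animals.

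The promoters of the synthesis genes are shown first, because most of these genes shared a direction in both injury comparisons and between the shams. RefSeq promoter sequence (GRCm38.p6, the assembly of mm10) was at hand for 25 of the 30 genes, 15 of them enzymes. Each window runs from 250 bases before the annotated start to 50 after it, and a gene counts where any of its windows holds the motif. The box CCAAT, which the factor NF-Y binds beside SREBP, was searched on both strands (as ATTGG on the other) and was present for 14 of 15 enzymes (93.3%), against 41.1% of all 27025 genes with a window and 43.0% of the 8697 among them that reached 1 FPKM in every library. It was in none of the windows of Abca1, Apoe and Nr1h3. Of all 25 members with a window, 19 held it. Among them were Ebp, whose directions were opposite to those of most enzymes, and, outside the enzymes, Insig2 and Mylip. The Sp1 box GGGCGG was present for 14 of 15 enzymes too, but also for 70.9% of those 8697 genes. A strict core of the sterol regulatory element, TCACNCCAC, was present for 1 member, Hmgcs1, and for 1.44% of all genes. None of these motifs contains another. A match describes the sequence and is not evidence that a factor was bound. The 250 bases before the start are given below, on the strand of the gene, for Hmgcs1 (chr13:119690101-119690350, plus strand), which held the sterol element, for Idi1 (chr13:8885356-8885605, plus strand) and Msmo1 (chr8:64733579-64733828, minus strand), enzymes with large differences, and for the efflux gene Abca1 (chr4:53159896-53160145, minus strand) as the contrast. Capitals mark the CCAAT or ATTGG boxes and, in Hmgcs1, also the 9 bases of the sterol element core.
Hmgcs1: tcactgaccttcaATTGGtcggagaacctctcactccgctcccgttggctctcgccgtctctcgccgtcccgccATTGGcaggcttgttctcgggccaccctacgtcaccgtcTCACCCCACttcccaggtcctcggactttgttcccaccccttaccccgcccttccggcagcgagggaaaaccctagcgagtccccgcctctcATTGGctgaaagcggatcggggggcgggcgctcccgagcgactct
Idi1: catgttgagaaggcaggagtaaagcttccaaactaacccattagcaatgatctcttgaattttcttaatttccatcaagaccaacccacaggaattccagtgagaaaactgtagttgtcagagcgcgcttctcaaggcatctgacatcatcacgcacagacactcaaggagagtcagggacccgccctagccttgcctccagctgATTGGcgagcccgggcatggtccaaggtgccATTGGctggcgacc
Msmo1: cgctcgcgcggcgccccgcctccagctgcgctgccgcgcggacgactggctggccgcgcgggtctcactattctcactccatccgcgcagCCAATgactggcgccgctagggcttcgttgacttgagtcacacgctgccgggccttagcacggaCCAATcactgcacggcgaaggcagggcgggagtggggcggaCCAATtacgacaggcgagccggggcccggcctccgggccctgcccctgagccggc
Abca1: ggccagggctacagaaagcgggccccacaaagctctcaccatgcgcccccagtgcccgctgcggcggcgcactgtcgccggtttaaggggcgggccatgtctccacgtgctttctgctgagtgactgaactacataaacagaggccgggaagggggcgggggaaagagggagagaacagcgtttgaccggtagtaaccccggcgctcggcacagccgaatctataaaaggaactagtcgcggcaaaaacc

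**Figure D1:**
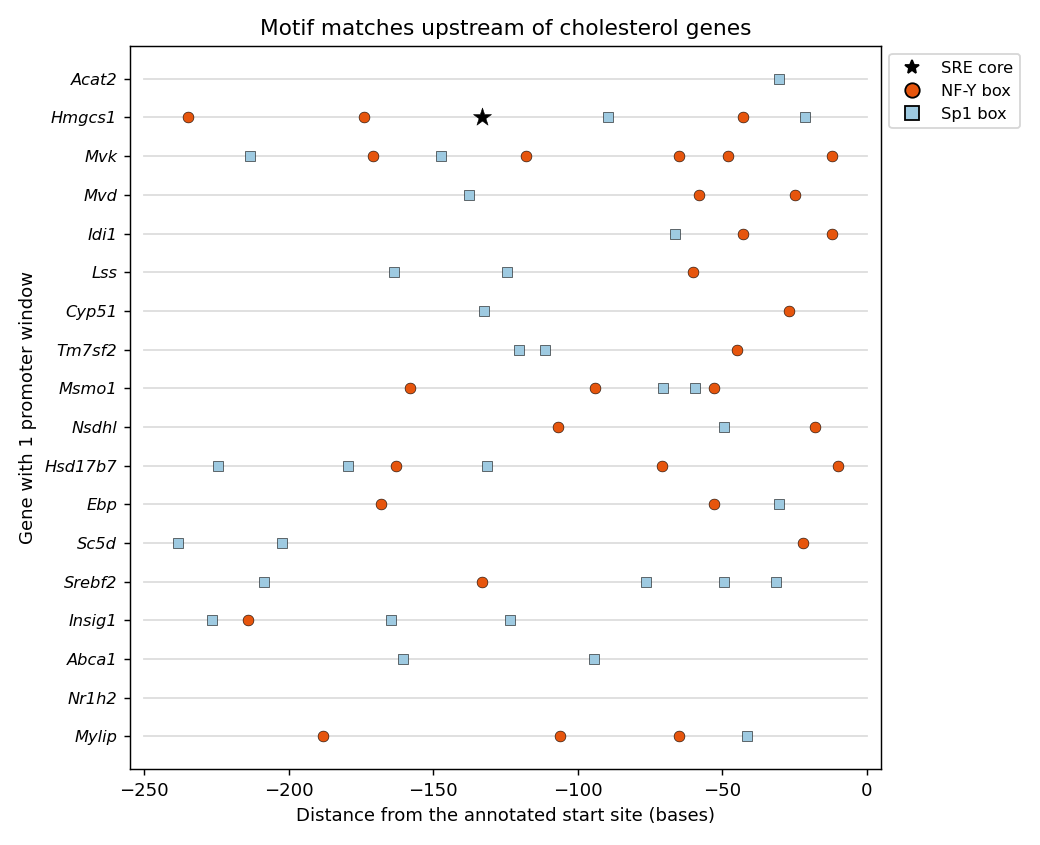
Positions of matches to the NF-Y box (circles), the Sp1 box (squares) and the core of the sterol regulatory element (star) in the 250 bases before the annotated start, for the members with 1 promoter window. The x axis is the distance from the start in bases. Each enzyme shown except Acat2 has at least 1 NF-Y box, Abca1 and Nr1h2 have none, and the star stands in Hmgcs1.

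Most synthesis enzymes were highest in young sham cartilage, lowest in adult sham cartilage and intermediate in both injured libraries. The FPKM of the 18 enzymes summed to 512.8, 341.5, 213.4 and 328.4 in the order given above. Young sham was the highest library for 17 of the 18 enzymes and adult sham the lowest for 15, and for 16 enzymes both injured libraries lay between the shams, 15 of them in this order and Ebp in the reverse one. After injury most enzymes therefore differed in opposite directions at the 2 ages, and their median log2 ratio was -0.60 at the young age and 0.56 at the adult age. Between the injured libraries themselves their median log2 ratio, adult against young, was -0.02, and it turned to 0.15 when scaled to the same sum, 0.06 by median of ratios and 0.04 by quantiles. Each sham library enters both an injury ratio and the ratio of the shams, so these values share libraries and are not independent. The share of all genes with the library order of the enzymes was not computed. Of the 10891 genes, 69.6% were lower in adult than in young sham cartilage. After injury 55.3% of them were lower in young mice and 71.8% higher in adult mice.

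**Figure D2:**
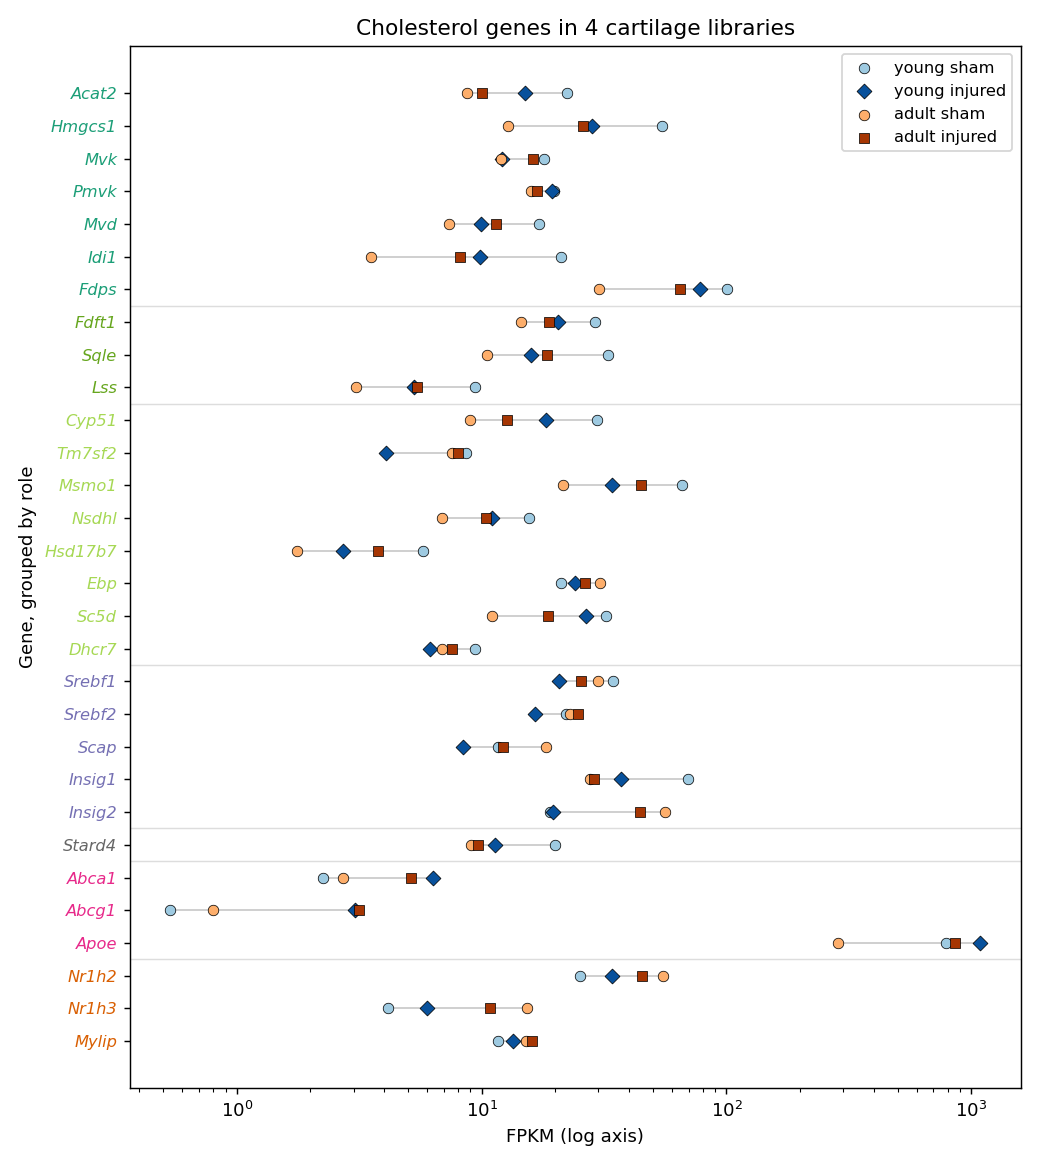
FPKM of the 30 genes (log axis) for young sham (light blue circles) and injured (dark blue diamonds) cartilage and for adult sham (light orange circles) and injured (brown squares) cartilage, 1 library per group, with genes ordered and coloured by role and a grey line from the lowest to the highest library. For most enzymes the light blue circle is at the right end, the light orange circle at the left end and the injured libraries lie between them, whereas for Abca1 and Abcg1 both shams lie to the left of both injured libraries.

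Of the early enzymes, from acetoacetyl-CoA to farnesyl diphosphate, Hmgcs1, Idi1 and Fdps showed this order clearly. Hmgcs1 (chromosome 13, 119690351 to 119708260), which makes HMG-CoA, was at 54.8, 28.3, 12.8 and 25.8 FPKM. Idi1 (chromosome 13, 8885606 to 8892396), which isomerises isopentenyl diphosphate, was at 21.1, 9.85, 3.53 and 8.19 FPKM. Fdps (chromosome 3, 89093588 to 89101967), the farnesyl diphosphate synthase and the most abundant of the enzymes, was at 100.5, 77.8, 30.2 and 64.7 FPKM. Each of the 3 genes was more than 3-fold lower in adult sham than in young sham cartilage on the plain FPKM scale, where the adult to young ratios were 0.233, 0.168 and 0.2999. Their log2 ratios after injury were -0.93 in young and 0.96 in adult mice for Hmgcs1, -1.02 and 1.02 for Idi1, and -0.37 and 1.08 for Fdps. Part of the sequence of Idi1 and Fdps also occurs in other genes (18.8% and 27.9% of their 31-base words), so their levels are less certain than that of Hmgcs1, with 1.54%.

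The remaining genes of this stretch differed less between the shams. Mvd, the diphosphomevalonate decarboxylase, was at 17.2, 9.99, 7.32 and 11.5 FPKM. Mvk, the mevalonate kinase, was at 17.97, 12.1, 12.1 and 16.3 FPKM, with nearly equal values in young injured and adult sham cartilage. Pmvk, the kinase of the next step, hardly varied, at 19.8, 19.5, 15.8 and 16.9 FPKM, and its ratio between the shams (-0.31) turned positive after median-of-ratios rescaling. Its log2 ratios were -0.02 in young and 0.09 in adult mice, and the latter turned negative after median-of-ratios and quantile rescaling. Acat2, a cytosolic thiolase, was at 22.4, 15.1, 8.69 and 10.1 FPKM. It shares 43.7% of its 31-base words with other genes, chiefly its neighbor Acat3, and its adult injury ratio of 0.19 also turned negative after the same pair of rescalings.

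The enzymes that form squalene and close the ring to lanosterol followed the same order. Sqle (chromosome 15, 59315092 to 59331193), the squalene epoxidase and a rate-limiting step, was at 32.9, 15.9, 10.5 and 18.5 FPKM. Lss, the lanosterol synthase, was at 9.36, 5.30, 3.06 and 5.44 FPKM, and Fdft1, the squalene synthase, at 29.0, 20.5, 14.5 and 18.9 FPKM. All 3 were lower in injured than in sham cartilage of young mice (log2 ratios of -1.01, -0.72 and -0.48) and higher in adult mice (0.76, 0.66 and 0.36), and these directions held under all 3 rescalings.

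The 8 enzymes that turn lanosterol into cholesterol were more mixed. Msmo1 (chromosome 8, 64718123 to 64733578), a sterol C4-methyl oxidase, was at 65.6, 34.1, 21.5 and 44.8 FPKM. Hsd17b7, which acts in the same demethylation, was at 5.78, 2.72, 1.76 and 3.77 FPKM, and Nsdhl, its partner dehydrogenase, at 15.6, 10.9985, 6.86 and 10.4 FPKM. These genes of the C4-demethylation complex had log2 ratios after injury between -0.92 and -0.46 in young mice and between 0.53 and 1.03 in adult mice. Cyp51, the lanosterol demethylase, was at 29.6, 18.2, 9.01 and 12.7 FPKM. Sc5d, a desaturase, was at 32.1, 26.7, 11.01 and 18.6 FPKM, so that its difference between the shams (-1.46) was much larger than its difference after injury in young mice (-0.26).

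Tm7sf2, Dhcr7 and Ebp stood apart from the other late enzymes. Tm7sf2, a C14 sterol reductase, was at 8.67, 4.08, 7.54 and 8.004 FPKM, so young injured was its lowest library, and its ratio between the shams (-0.18) turned positive after median-of-ratios and quantile rescaling. Dhcr7, which catalyses the last reduction of 7-dehydrocholesterol, was at 9.38, 6.14, 6.91 and 7.54 FPKM and was likewise lowest in young injured cartilage. For both, the adult injury ratio was small (0.08 and 0.11) and turned negative after the same rescalings. Ebp, a sterol isomerase that also binds many drugs, ran against the other enzymes, at 21.2, 24.2, 30.4 and 26.3 FPKM. Its log2 ratios were 0.18 for injury in young mice, -0.20 after injury in adult mice and 0.50 between the shams, with the same signs under all 3 rescalings.

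Set against all genes, the share of enzymes that were lower in young injured cartilage was 17 of 18, where 49.9% of the 18181 genes above 0 in any library, and 55.3% of the 10891 genes, were below 0. In adult mice 17 of 18 enzymes were above 0, where 67.2% and 71.8% of genes were, and 13 of 18 were above 0 under all scalings. Between the shams 17 of 18 were lower in the adult, where 65.6% and 69.6% of genes were, and 15 of 18 under all scalings. After median-of-ratios rescaling, which brings the median of the 10891 genes close to 0, the enzyme median was -0.58 in young and 0.31 in adult mice after injury and -0.97 between the shams. The difference between the 2 injury ratios, adult minus young, was above 0 for 17 of 18 enzymes, with a median of 1.07 and a range from -0.38 (Ebp) to 2.04 (Idi1). For the 10891 genes its median was 0.25, and it was above 0 for 71.5% of them. A difference of 1 or more was found for 5.81% of these genes, against 10 of the 18 enzymes. After median-of-ratios rescaling the enzyme median of this difference was 0.79, with 16 of 18 above 0 and 8 at 1 or more, beside -0.01, 49.1% and 3.05% for all genes.

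**Figure D3:**
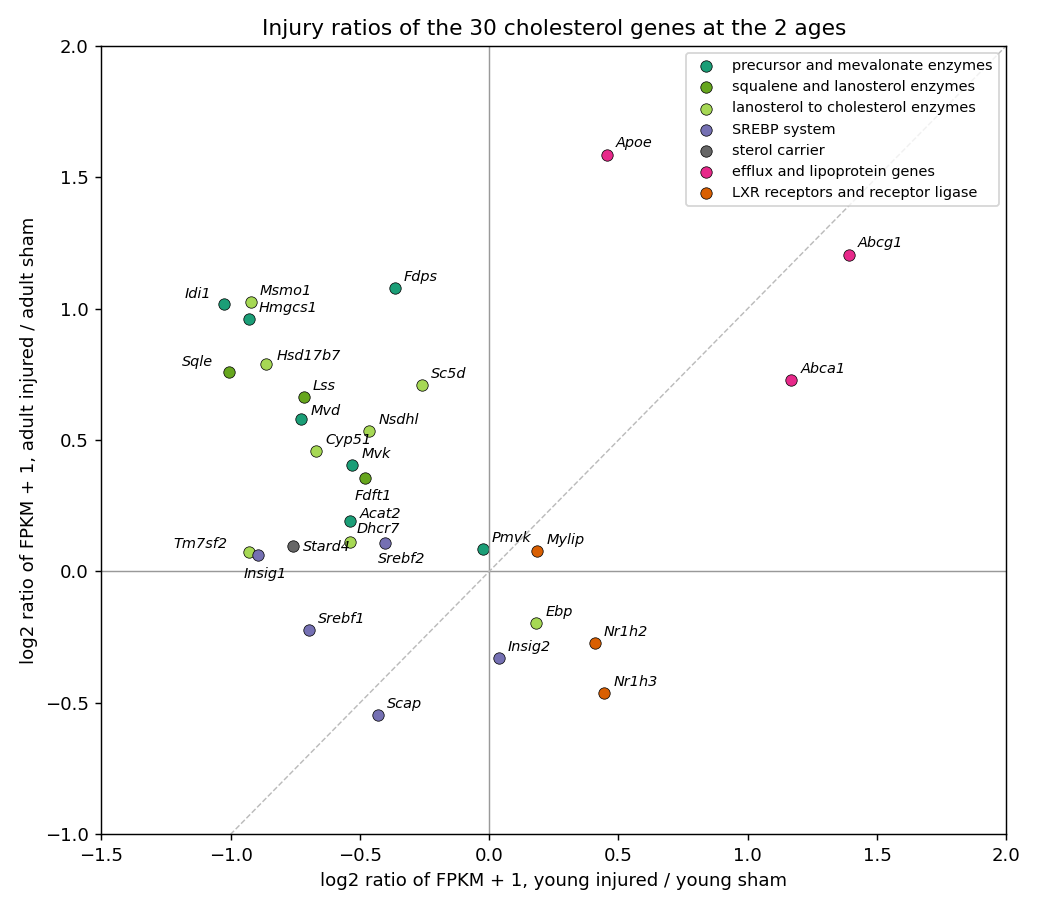
Log2 ratios of FPKM + 1 after injury for the 30 genes, in young mice on the x axis and in adult mice on the y axis, coloured by role, with 1 library per group and no error available between animals. The dashed line marks equal ratios. Most enzymes lie in the upper left, 13 of them under all scalings, Abca1, Abcg1 and Apoe in the upper right, and Nr1h2, Nr1h3 and Ebp in the lower right, with Insig2, whose young ratio of 0.04 is below 0 when the libraries are scaled to the same sum.

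Few members passed 2-fold after injury. In young mice 4 of 30 did, of which Abca1 and Abcg1 were higher and Idi1 and Sqle lower, beside 5.83% of the 18181 genes (4.57% higher and 1.27% lower). In adult mice 5 of 30 did, all higher (Idi1, Fdps, Msmo1, Abcg1 and Apoe), beside 8.37% of all genes (6.90% higher and 1.46% lower). Between the shams 18 of 30 did, 3 higher and 15 lower in the adult, beside 13.3% of all genes (2.66% higher and 10.6% lower), and 12 of the 15 lower genes were enzymes. The 15 lower members became 10 after median-of-ratios rescaling, 9 of them enzymes (5.55% of all genes), and 9 after quantile rescaling, 7 of them enzymes (5.27% of all genes). Between the injured libraries 1 of 30 did, Insig2, which was higher in the adult, beside 4.89% of all genes (1.80% higher and 3.09% lower). With 1 added FPKM several enzymes were just short of 2-fold, among them Msmo1 (-0.92) and Hmgcs1 (-0.93) in young mice, and after median-of-ratios rescaling 0 members were 2-fold lower in young injured cartilage (1.14% of all genes) and 2 members were 2-fold higher in adult injured cartilage (4.76% of all genes). Scaled to the same sum, 7 members were 2-fold lower in young injured cartilage, 6 of them enzymes. In adult injured cartilage 7 were then 2-fold higher, 5 of them enzymes. The shares of all genes under this scaling were not computed.

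Of the 5 genes of the SREBP system, 4 were lower in young injured cartilage (median log2 ratio -0.43), as most enzymes were, beside 55.3% of the 10891 genes. In adult mice 3 of the 5 were lower after injury (median -0.22), beside 28.2%. After median-of-ratios or quantile rescaling 5 of 5 were lower there, beside 50.4% and 55.8%. Between the shams 3 of the 5 were higher in the adult (median 0.05), beside 30.4%. In the adult injury and sham comparisons the medians of these 5 genes did not have the sign of the enzyme medians. Insig1, itself an SREBP target that retains Scap, was at 69.6, 37.0, 27.6 and 28.9 FPKM. Stard4, a sterol carrier and likewise an SREBP target, was at 19.9, 11.3, 9.01 and 9.70 FPKM. Both thus resembled the enzymes in young mice (log2 ratios of -0.89 and -0.76) and between the shams (-1.30 and -1.06). In adult mice their injury ratios were 0.06 and 0.10 and turned negative after median-of-ratios and quantile rescaling, while the enzyme median was 0.56.

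The other genes of the system had different orders again. Insig2, the relative of Insig1 that does not need SREBP, was at 19.0, 19.5, 56.2 and 44.5 FPKM, with log2 ratios of 1.52 between the shams and 1.15 between the injured libraries. Insig1 therefore exceeded Insig2 in both young libraries and was below it in both adult libraries, on the FPKM scale. Srebf1, which chiefly drives fatty acid synthesis, was at 34.3, 20.8, 29.9 and 25.5 FPKM. Its injury ratio in young mice was -0.70, and its ratio between the shams (-0.19) turned positive after median-of-ratios and quantile rescaling. Srebf2, which chiefly drives the sterol enzymes, was at 22.1, 16.5, 22.9 and 24.8 FPKM. Its injury ratio was -0.40 in young mice, and the adult one, 0.11, turned negative after both. Its log2 ratio between the shams was 0.05 while the enzyme median was -1.28. Scap, the sterol sensor that escorts both, was at 11.6, 8.37, 18.3 and 12.2 FPKM and was lower after injury at both ages (-0.43 and -0.55).

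The efflux and lipoprotein genes Abca1, Abcg1 and Apoe were higher after injury at both ages, under all scalings. Abca1 (chromosome 4, 53030789 to 53159988), which loads cholesterol onto lipid-poor apolipoprotein, was at 2.25, 6.31, 2.71 and 5.14 FPKM. Abcg1, which exports to mature lipoprotein particles, was at 0.535, 3.03, 0.802 and 3.16 FPKM, with plain ratios after injury of 5.66 (young) and 3.93 (adult). For both transporters the injured libraries lay above the shams. Apoe (chromosome 7, 19696244 to 19701310) was above 99.4% of the 18181 genes by its mean FPKM, at 791.5, 1085, 284.1 and 855.1 FPKM. Its log2 ratios were 0.45 in young and 1.59 in adult mice, and the low level of adult sham cartilage set it apart from the transporters. With Nr1h3, the 4 efflux genes had medians on the log2 scale of 0.81 (young) and 0.97 (adult) after injury, beside -0.60 and 0.56 for the enzymes. The lists thus had opposite signs in young mice, whereas in adult mice both medians were above 0, and Nr1h3 was below 0 there.

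The LXR receptors behaved unlike the transporters. Nr1h3, the LXR form abundant in macrophages and liver, was at 4.15, 6.01, 15.4 and 10.9 FPKM. Nr1h2, the widely expressed form, was at 25.3, 33.9, 54.9 and 45.2 FPKM. Both were higher in adult than in young sham cartilage (log2 ratios of 1.67 and 1.09), and their injury ratios were above 0 in young mice (0.45 and 0.41) and below 0 in adult mice (-0.46 and -0.27), under all scalings. Mylip varied little, between 11.7 and 16.1 FPKM, and its adult injury ratio of 0.08 turned negative after median-of-ratios and quantile rescaling.

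As a description of the balance of both sides, the summed enzymes stood at 73.9, 22.2, 11.3 and 17.1 times the sum of Abca1, Abcg1 and Nr1h3 in the 4 libraries. Nr1h3 made up most of the divisor in all libraries but young injured. Against Abca1 and Abcg1 alone, a ratio computed after the first was seen, the enzymes stood at 183.9, 36.6, 60.8 and 39.6 times, so that the adult ratio was then lower after injury and adult sham was not the lowest library. These ratios are taken within a library, so a common factor for a library leaves them as they are. Apoe was at 1.54, 3.18, 1.33 and 2.60 times the summed enzymes in the same order, higher in both injured libraries than in both shams.

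Macrophage markers were higher after injury at both ages, as were Abca1, Abcg1 and Apoe but, in adult mice, not Nr1h3 (-0.46). Their summed FPKM over 12 genes was 203.8, 1914, 329.7 and 1657 in the 4 libraries, and 10 of the 12 were at least 2-fold higher after injury at either age, beside 4.57% of all genes in young and 6.90% in adult mice. Mertk was not among them (-0.45 and 0.20). Between the shams 11 of the 12 were higher in the adult (median 0.94), beside 30.4% of the 10891 genes of at least 1 FPKM in all libraries (51.6% after median-of-ratios rescaling, again with 11 of the 12 higher), and in that comparison Abca1 and Abcg1 had ratios of 0.19 and 0.23 and Apoe one of -1.48. Lyz2 reached 1271 and 1090 FPKM in the injured libraries, Adgre1 was at 1.33, 30.3, 3.22 and 16.8 FPKM, and Cd163 was below 1 FPKM in all 4 libraries, while no marker of this list was at 0 in any library. Their part in the efflux values was not tested. Proliferation genes moved partly with the enzymes: all 8 were lower in adult sham than in young sham cartilage (median log2 ratio -2.08), beside 69.6% of the 10891 genes, and all 8 were higher after injury in adult mice (1.27), beside 71.8%. All 8 were also higher after injury in young mice (0.92), beside 44.7%, where most enzymes were lower. Chondrocyte markers had medians of -0.28 and 0.34 after injury in young and adult mice and -1.67 between the shams, the same signs as the enzyme medians. After injury in adult mice 8 of the 12 were above 0, beside 71.8% of the 10891 genes. The adult median was 0.44 under TPM with 8 of 12 above 0, beside 78.1%. It was 0.35 after quantile rescaling with 7 of 12, beside 44.1%, and 0.06 after median-of-ratios rescaling with 6 of 12, beside 49.6%. Skeletal muscle markers summed to 1159 FPKM in adult sham cartilage and to 355.2 to 500.5 FPKM elsewhere. Osteoblast markers summed to 765.5 and 1468 FPKM in the young and 5545 and 6045 FPKM in the adult libraries. Erythroid markers were lower in adult than in young sham cartilage for 7 of 8 genes, 6 of them 2-fold, beside 65.6% and 10.6% of all genes, with a median of -1.57. The part of these tissues in the enzyme values was not tested.

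Other genes of lipid metabolism were described in the same way. The 12 genes of fatty acid synthesis, which SREBP factors also drive, resembled the enzymes in 3 of the 4 comparisons, with medians of -0.53 and 0.38 after injury in young and adult mice and -1.34 between the shams, where 8 of 12 were 2-fold lower, beside 10.6% of all genes. After median-of-ratios rescaling the adult median was 0.14, with 7 of 12 above 0, beside 49.6% of the 10891 genes, and after quantile rescaling it was 0.10, with 6 of 12 above 0, beside 44.1%. Between the injured libraries they were less evenly split than the enzymes, with 10 of the 12 lower in the adult (median -0.56, and -0.43 to -0.51 with 9 of 12 lower under the other scalings), beside 57.2% of the 10891 genes, while 9 of the 18 enzymes were lower (median -0.02). Scd2, a fatty acid desaturase, was at 112.0, 61.6, 24.7 and 38.0 FPKM. Fads2, the desaturase of long polyunsaturated chains, was at 18.01, 16.4, 3.45 and 9.82 FPKM and was the member of this list that was 2-fold higher in adult injured cartilage (1.28, and 0.92 after quantile rescaling). Elovl6, an elongase, was 2-fold lower in young injured cartilage (-1.07). The 12 measured genes of the isoprenoid branch and other sterol enzymes stayed closer to all genes, with medians of -0.11, 0.13 and -0.40, of which the adult injury median turned to -0.10 after median-of-ratios and -0.13 after quantile rescaling, and the sham median to -0.06 and -0.05. Among them Ggps1, which makes geranylgeranyl diphosphate from the product of Fdps, had the pattern of the enzymes at larger size, at 7.84, 2.39, 1.38 and 4.996 FPKM, and was 2-fold lower in young and 2-fold higher in adult injured cartilage (-1.38 and 1.33, the latter 0.97 after quantile rescaling).

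Genes of lipoprotein uptake, lysosomal release and storage included 6 of 18 that were at least 2-fold higher after injury in young mice, beside 4.57% of all genes, and 6 of 18 in adult mice, beside 6.90%, with 0 at least 2-fold lower at either age. They were led by genes that macrophages express. Msr1 and Cd36, scavenger receptors for modified lipoprotein, had log2 ratios of 3.91 and 2.76 in young and 2.93 and 2.27 in adult mice. Lipa, the lysosomal lipase, had 1.67 and 2.06, and Plin2, a coat protein of lipid droplets, 1.15 and 1.68. Soat1, which esterifies cholesterol for storage, was 2-fold higher in adult mice (1.14, and 0.91 and 0.78 after median-of-ratios and quantile rescaling) and had a ratio of -0.03 in young mice. In contrast Scarb1, a receptor for high-density lipoprotein, had the signs of the enzymes (-0.60 and 0.54). Of the 8 other LXR targets, partners and lipoprotein genes, Pltp and Apoc2 were 2-fold higher in young mice (2.57 and 2.33), beside 4.57% of all genes. In adult mice Apoc2 was (2.39), beside 6.90%. The young median of this list was 0.02, with 4 of the 8 below 0, beside 55.3% of the 10891 genes. It turned to -0.08 under TPM and -0.01 after quantile rescaling. The adult median was 0.42, with 2 of the 8 below 0, beside 28.2%. Pltp, a phospholipid transfer protein, was at 5.59, 38.0, 45.1 and 77.5 FPKM.

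**Figure D4:**
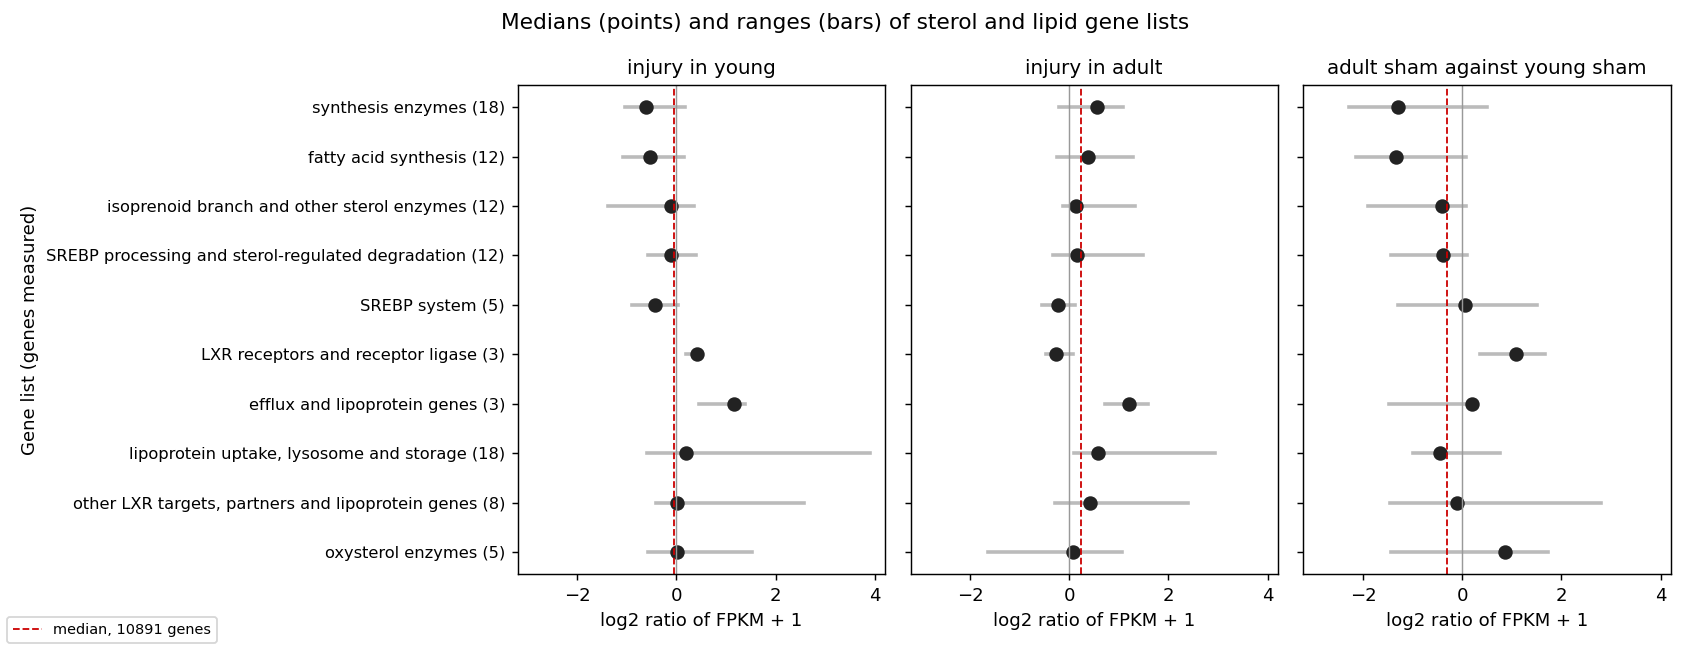
Median (point) and range (bar) of the log2 ratios of FPKM + 1 in 10 lists of sterol and lipid genes, for both injury comparisons and for the shams, with the number of genes measured in brackets and the median of the 10891 genes of at least 1 FPKM in all libraries as a dashed red line. The medians of synthesis enzymes and fatty acid synthesis lie left of the line in the first and the last panel and right of it in the middle panel, and the median of the 3 efflux and lipoprotein genes lies right of it in all 3, with the range crossing it in the last panel through Apoe (-1.48).

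The oxysterol enzymes differed among themselves. Ch25h, which makes 25-hydroxycholesterol and is known from activated macrophages, was 2-fold higher after injury at both ages (1.53 and 1.07), at 0.141, 2.29, 1.07 and 3.35 FPKM, but its adult ratio was 0.92 after median-of-ratios and 0.74 after quantile rescaling, short of 2-fold. Cyp27a1, the 27-hydroxylase, was at 7.48, 5.10, 27.0 and 8.05 FPKM, so adult sham was its highest library and its adult injury ratio was -1.63. The 12 genes of SREBP processing and sterol-regulated degradation had medians of -0.11 and 0.16 after injury in young and adult mice and -0.39 between the shams, and the adult injury median turned to -0.09 and -0.11, and the sham median to -0.04 and -0.08, after the same rescalings. In this list 9 of 12 genes were below 0 after injury in young mice and 10 of 12 between the shams, beside 49.9% and 65.6% of all genes. Of these Mbtps1, the protease that first cuts SREBP, was the most abundant, between 40.4 and 64.6 FPKM, and Erlin1, which takes part in sterol-regulated degradation, was 2-fold higher in adult injured cartilage (1.48), at 6.36, 8.65, 1.73 and 6.65 FPKM.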

How the data were processed

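RNA was pooled per group, and 1 poly-A selected, stranded, paired-end library was sequenced for each of 4 groups. The authors deposited FPKM for 24532 genes on mm10. The submitters' processing notes name HISAT2 2.1.0 and StringTie 1.3.4d, among other tools, without their roles. FPKM were used as deposited, with 1 FPKM added before log2 ratios were taken, and with 18181 genes above 0 in at least 1 library as background. With 1 library per group no test was run. A gene was called at 2-fold or more.

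The members and lists were chosen with earlier results of these data known. All 30 members are named. From the other lists the most abundant genes and those past 2-fold after injury were eligible. Scarb1, Cd163, Mertk and the printed promoters were chosen after their values were seen. Of the list genes 1 had no row, and Cnmd was matched through its Entrez identifier. Markers of macrophages, neutrophils, erythroid cells, muscle, adipocytes, osteoblasts, chondrocytes and proliferation were examined. Neutrophil markers had medians of 0.92 and 0.29 after injury in young and adult mice, erythroid markers 0.81 and -0.40, and adipocyte markers -0.42 and -0.71. Alternatives were pseudocounts of 0.1 and 5 FPKM, TPM, median-of-ratios and quantile scaling, a filter of 1 FPKM in all libraries, and thresholds of 1.5-fold and 3-fold. Shared sequence was counted over GENCODE transcripts. The scripts were tested on simulated data. Python 3.11.15, numpy 2.4.6, pandas 2.3.3 and matplotlib 3.10.9 were used.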

Additional observations from a re-analysis of the deposited data

Results flagged for a closer look

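For 16 of the 30 members the log2 ratio after injury had opposite signs in young and adult mice, without scaling and after all 3 rescalings. The share of all genes with opposite signs was not computed, so this count is not set against all genes. Without scaling, 55.3% of the 10891 genes were below 0 in young mice and 71.8% above 0 in adult mice. After median-of-ratios rescaling these shares were 52.5% and 49.6%. Each sign rests on 1 library per group, and the difference between the ages was not tested. The 13 enzymes below 0 in young and above 0 in adult mice were Hmgcs1 (-0.93 and 0.96), Mvk (-0.53 and 0.40), Mvd (-0.73 and 0.58), Idi1 (-1.02 and 1.02), Fdps (-0.37 and 1.08), Fdft1 (-0.48 and 0.36), Sqle (-1.01 and 0.76), Lss (-0.72 and 0.66), Cyp51 (-0.67 and 0.46), Msmo1 (-0.92 and 1.03), Nsdhl (-0.46 and 0.53), Hsd17b7 (-0.87 and 0.79) and Sc5d (-0.26 and 0.71). The 3 members above 0 in young and below 0 in adult mice were Ebp (0.18 and -0.20), Nr1h2 (0.41 and -0.27) and Nr1h3 (0.45 and -0.46).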

How the results depend on the processing

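No paired analysis was possible because each group is 1 library, and for the same reason no replicate could be left out. With no spread to judge by, a median was called moved past 0.25 on the log2 scale and a count past 1.5 times. The enzyme and efflux medians kept their sign under the alternatives run for both injury comparisons and for the shams. Between the injured libraries the enzyme median (-0.02) turned to 0.15, 0.06 and 0.04 under TPM, median-of-ratios and quantile scaling, and the efflux median (-0.10) to 0.05 under TPM and 0.08 under quantile scaling.

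With 5 FPKM added in place of 1, the efflux median was 0.49 in young and 0.44 in adult mice after injury, the enzyme median between the shams was -0.84, and the members past 2-fold numbered 0, 1 and 11 in these comparisons (4, 5 and 18 as reported). With 0.1 FPKM added the efflux median in adult mice was 1.25. With at least 1 FPKM required in all libraries, Abcg1 dropped out and the efflux median in young mice was 0.45. Scaled to TPM, the efflux median in adult mice was 1.24, and the members past 2-fold numbered 9 for injury in young mice and 2 between the injured libraries. Under median-of-ratios scaling, 2 members passed 2-fold after injury at either age and the enzyme median between the shams was -0.97. After quantile normalization the enzyme and efflux medians were 0.26 and 0.63 in adult mice and -0.93 and 0.53 between the shams, and 1 member passed 2-fold after injury in adult mice. At a threshold of 1.5-fold, 14 members passed in young mice, 11 in adult mice and 3 between the injured libraries. At 3-fold, 0 passed in young mice, 1 in adult mice, 5 between the shams and 0 between the injured libraries. For most of the counts under these alternatives no share of all genes was available, so they do not compare the members with all genes.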
